A study of Homo sapiens with 12 samples.

Results

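The human mitochondrial genome carries 37 genes: 13 for subunits of the respiratory chain and the ATP synthase, 2 for rRNAs and 22 for tRNAs. The 13 protein genes are called mRNAs below, gene by gene. They were chosen as the rows that the files place on chromosome M with a name starting with MT-, which gave 37 of 60660 genes, and all 37 were among the 16842 genes tested. RNA was sequenced from Kelly, an established human neuroblastoma cell line with MYCN amplification, in 3 derivatives that each carry a short hairpin RNA (shRNA) switched on by doxycycline: against RCOR1 (shRCOR1), against RCOR2 (shRCOR2), or a control (shCTRL). With and without 2 µg/mL doxycycline (induced and untreated cells below), the lines form 6 groups of 2 libraries, 12 in all. The induced control cells thus carry doxycycline and a control shRNA. The time label is 72 h while the treatment protocol speaks of 24 or 48 h, so the length of induction is uncertain. The sources used here do not give whether the 2 libraries of a group are separate cultures or whether a line is 1 clone, so p-values measure the spread between these libraries only.

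Mitochondrial DNA is a circle that the polymerase POLRMT, with the factors TFAM and TFB2M, transcribes on both strands into long RNAs spanning many genes. Most mRNAs and rRNAs are separated by tRNAs, and cutting at the tRNA ends releases them: mitochondrial RNase P, made of TRMT10C, HSD17B10 and PRORP, cuts the 5′ end, and ELAC2 cuts the 3′ end. Doxycycline belongs to the tetracyclines, which are known to inhibit mitochondrial ribosomes.

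Of the 37 genes, 28 lie on the plus strand of the reference: 12 mRNAs, both rRNAs and 14 tRNAs. MT-ND6 and 8 tRNAs lie on the minus strand. The coordinates in the files were the same as in GENCODE v29 (GRCh38) for all 37, and the sequences below are from that release, read 5′ to 3′ along each gene. The tRNA genes are 59 to 75 bases long, and the deposited values do not separate a mature tRNA from precursor RNA that runs through it. As the strand setting is not given, reads from RNA of the other strand cannot be set apart either. A tRNA level or change below thus means that of the RNA counted over its gene. Shown are the tRNAs whose levels changed in a line or differed most between replicates, with the anticodon in capitals: MT-TL1 (leucine, chrM:3230-3304, plus strand), MT-TD (aspartate, chrM:7518-7585, plus), MT-TV (valine, chrM:1602-1670, plus), MT-TG (glycine, chrM:9991-10058, plus) and MT-TS1 (serine, chrM:7446-7514, minus).
MT-TL1: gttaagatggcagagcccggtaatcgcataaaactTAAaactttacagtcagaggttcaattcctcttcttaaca
MT-TD: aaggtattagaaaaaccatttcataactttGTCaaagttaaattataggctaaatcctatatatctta
MT-TV: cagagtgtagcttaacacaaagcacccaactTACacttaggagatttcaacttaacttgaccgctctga
MT-TG: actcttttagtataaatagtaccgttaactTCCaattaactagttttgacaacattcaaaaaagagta
MT-TS1: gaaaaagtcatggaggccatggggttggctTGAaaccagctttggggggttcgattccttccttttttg

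2 pairs of protein genes share bases, and their values can share reads. As they overlap, the genes of a pair are not independent members in the counts of mRNAs and ratios below. MT-ATP8 and MT-ATP6, which encode 2 ATP synthase subunits, share 46 bases (capitals, with flanks, chrM:8515-8584, plus), and MT-ND4L and MT-ND4, which encode complex I subunits, share 7 (chrM:10748-10778, plus).
MT-ATP8 and MT-ATP6: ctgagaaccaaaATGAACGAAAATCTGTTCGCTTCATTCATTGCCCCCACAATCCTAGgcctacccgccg
MT-ND4L and MT-ND4: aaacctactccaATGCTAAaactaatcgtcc

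The nuclear genome also holds copies of these genes. Of 415 nuclear rows named as such copies, 297 were listed at 0 in all 12 libraries and 13 were among the genes tested. The most abundant was MTATP6P1 (ENSG00000248527.1, chromosome 1, 633696 to 634376), with 2539 to 4927 TPM, which differs from MT-ATP6 at 10 of 681 aligned bases. It stayed at 15.1% to 16.8% of MT-ATP6 in every library. MTND2P28 stayed at 13.9% to 16.9% of MT-ND2 and MTCO1P12 at 2.75% to 3.55% of MT-CO1, with 17 of 1042 and 20 of 1542 mismatched bases. MTND1P23 and MTCO3P12 were at 1.02% to 1.55% and 0.116% to 0.174% of MT-ND1 and MT-CO3. The sources used here do not give how reads with several alignments were assigned, so the levels of MT-ATP6, MT-ND2 and MT-CO1 are uncertain, and exchange of reads with the copies was not tested. The opening 50 bases of MT-ATP6 (chrM:8527-8576) and of its copy (chr1:633696-633745) show how close the pair is, with the 1 mismatched base in capitals.
MT-ATP6: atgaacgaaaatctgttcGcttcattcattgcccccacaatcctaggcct
MTATP6P1: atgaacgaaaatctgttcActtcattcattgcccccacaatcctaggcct

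Values are in TPM, a length-normalised share of the RNA of a library, so a rise of 1 transcript lowers the share of others. In bulk RNA, fewer cells of a type and less RNA per cell cannot be told apart. Depth, from the ratio of coverage to FPKM, ran from 1 to 2.16 times that of the shallowest library. RCOR1 was at 8.32 and 9.08 TPM in untreated and 4.8 and 5.07 in induced shRCOR1 cells, and RCOR2 at 55.4 and 49.9 TPM in untreated and 17.7 and 20.5 in induced shRCOR2 cells. RCOR2 was also lower in induced than untreated shRCOR1 cells, at 26 and 26.3 against 51.4 and 50.5 TPM. All 8 adrenergic neuroblastoma markers were present, with a summed level of 3550 to 6200 TPM that was lowest in the 2 induced shRCOR2 libraries. MYCN carried that drop, at 1269 and 1042 TPM induced against 3020 and 2677 untreated in this line, while GATA3 was highest of the 12 libraries there, at 258 and 268 TPM. None of 4 leukocyte markers reached a mean of 1 TPM. The summed level of 7 fibroblast markers was 34.5 to 45.2 TPM in the replicate 1 libraries and 54.5 to 160 TPM in the replicate 2 libraries, with DCN below 0.1 TPM throughout. The sum of 4 endothelial markers was highest in induced shRCOR2 cells, at 3.99 and 6.68 TPM against 0.917 to 2.78 elsewhere, with PECAM1 and CDH5 below 0.1 TPM throughout. The sum of 4 epithelial markers was highest in induced shRCOR1 cells, at 5.16 and 9.8 TPM against 0.334 to 3.54 elsewhere, with KRT5 and CDH1 below 0.1 TPM throughout. The sum of 4 Schwann cell markers was 1.55 to 2.95 TPM in replicate 1 and 2.61 to 9.66 TPM in replicate 2, with SOX10 below 0.1 TPM throughout. The part of these markers in the results was not tested.

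Mitochondrial transcripts took 13.3% to 21.4% of all TPM in a library, with a median of 16.2%. The mRNAs made up 11% to 17.5% of the total, the rRNAs 1.66% to 3.65% and the tRNAs 0.464% to 1.18%. In shCTRL cells the share of the 37 genes was 15.9% and 21.4% untreated and 15.5% and 19.9% induced. In shRCOR1 cells it was 15.8% and 19.2% untreated and 13.3% and 16.5% induced, and in shRCOR2 cells 14.9% and 20.3% untreated and 15.3% and 19% induced. In each of the 6 groups replicate 2 stood above replicate 1, by a factor of 1.22 to 1.37, and the untreated and induced ranges overlapped in each line. Within a replicate number, the induced library was lower in both pairs of shRCOR1 and of shCTRL, and higher in 1 pair and lower in the other of shRCOR2.

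In untreated cells of the 3 lines (n = 6), the levels of the mRNAs and rRNAs differed widely between genes. MT-ATP8 (25010 ± 3260 TPM, SD), MT-RNR2, the rRNA of the large mitochondrial ribosomal subunit (24190 ± 3170), MT-CO1, the catalytic subunit of cytochrome c oxidase (19870 ± 2720), and MT-ATP6 (19750 ± 3040) led the order. MT-CO2 (14610 ± 3090) and MT-CO3 (12360 ± 1230), which encode the other core subunits of cytochrome c oxidase, followed. Below them came the complex I mRNAs MT-ND4 (9972 ± 3290), MT-ND4L (9679 ± 3140), MT-ND2 (8639 ± 533) and MT-ND1 (6680 ± 420). MT-CYB, cytochrome b of complex III (6037 ± 1570), MT-RNR1, the rRNA of the small subunit (5545 ± 1440), and MT-ND3 (5038 ± 485) stood close together. MT-ND5 (2579 ± 924) and MT-ND6 (1676 ± 136) were lowest. Only 2 steps of this order had ranges that did not overlap, from MT-ND2 to MT-ND1 and from MT-ND3 to MT-ND5. Within each of the 6 libraries, MT-RNR2 was also above MT-CO1, MT-ATP6 above MT-CO2 and MT-CO2 above MT-CO3. As poly(A) selection or rRNA depletion is not given, rRNA values here and below are those of the RNA left in the libraries. MT-ND6, the only mRNA read from the minus strand, was at 0.922% to 1.82% of the sum of the 12 plus-strand mRNAs over all 12 libraries. The tRNA values were lower and spread further: MT-TS1 had a median of 2107 TPM over the 12 libraries, MT-TL1 1335, MT-TY (tyrosine) 971.1, MT-TF (phenylalanine) 489.4 and MT-TV 457, while MT-TL2 (leucine) had 6.091. The gene of MT-TS1 lies on the minus strand directly after the end of MT-CO1, and its value was 4.65% to 20.2% of MT-CO1. Whether plus-strand reads add to it was not tested.

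**Figure D1:**
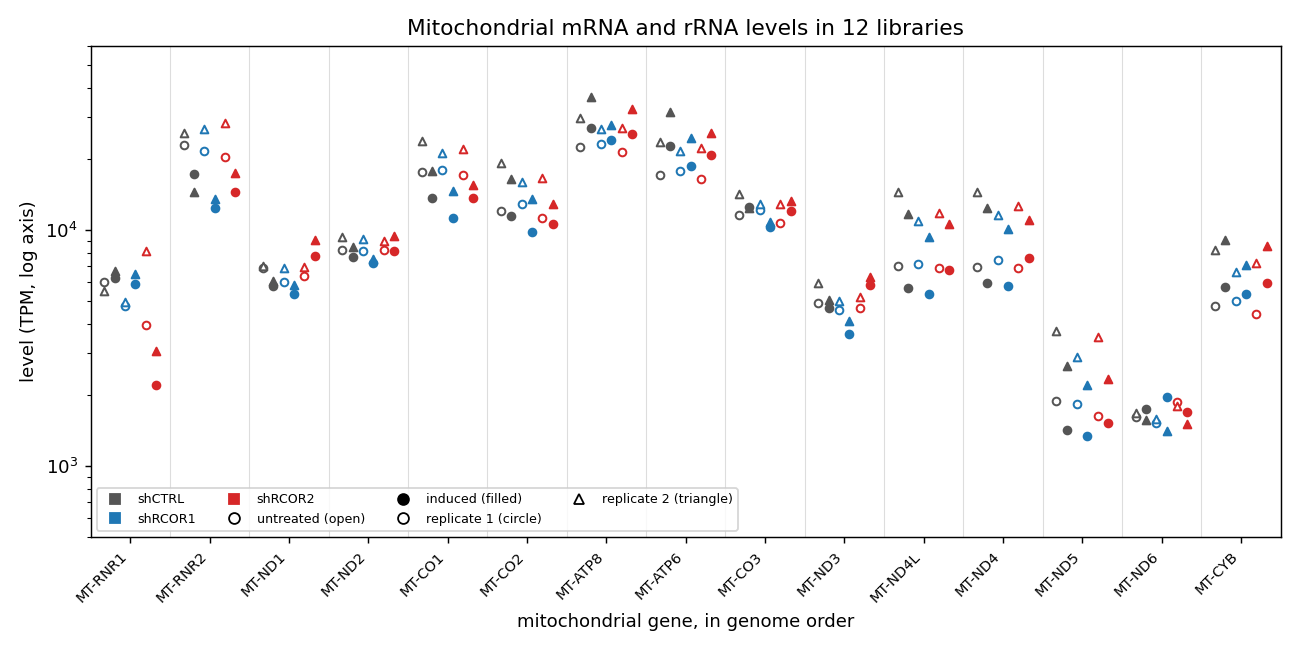
Level of the 13 mRNAs and 2 rRNAs in TPM on a log axis, 1 point per library, in genome order; open points are untreated, filled points induced, circles replicate 1 and triangles replicate 2. MT-RNR2 is below its untreated values in all 6 induced libraries, and MT-ND4L, MT-ND4 and MT-ND5 separate by replicate number.

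The untreated lines were compared with the control line first. In untreated shRCOR1 against untreated shCTRL cells, limma called 0 members, with 1 at an unadjusted p under 0.05 (0.0% of all genes tested were called, and 114 genes were under 0.05 unadjusted). In untreated shRCOR2 against shCTRL cells it also called 0, with 0 members under 0.05 unadjusted (0.0% called, 123 genes unadjusted). With the replicate block limma again called 0 members in both comparisons (0.0% of genes), with 8 members and 446 genes under 0.05 unadjusted for shRCOR1 and 2 members and 339 genes for shRCOR2. In untreated shRCOR1 cells 31 of the 37 members lay below shCTRL, among them MT-TW at −0.78 and MT-TA at −0.63, the tRNAs for tryptophan and alanine. The median log2 difference of the members was −0.14, against −0.02 over all genes, and the 13 mRNAs lay between −0.21 and −0.02.

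The comparison of induced with untreated shCTRL cells asks what doxycycline and a control shRNA did together. limma called 0 of the 37 members, with 4 at an unadjusted p under 0.05 (0.0% of all genes called, 938 unadjusted). The median log2 change of the members was −0.24, against −0.02 over all genes, with 28 of 37 below 0. MT-RNR2 was at 22860 and 25590 TPM untreated and 17220 and 14450 induced, a log2 difference of −0.62 ± 0.24 (SE, limma adjusted p = 0.871). MT-TY was at 1139 and 1134 TPM untreated and 646 and 766 induced, a difference of −0.69 ± 0.17 (limma adjusted p = 0.805). The untreated and induced libraries did not overlap for either gene. In the control line 7 members had both induced libraries below both untreated ones, where 15.6% of all genes did, and 1 member, MT-RNR1, had both above, where 7.99% did. The replicate numbers pair libraries across groups in these data, and with the number as a block MT-TY fell (limma adjusted p = 0.0469), the only member among the 0.0594% of genes called.

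In shRCOR1 cells, 3 tRNAs changed and no mRNA or rRNA did by limma without the replicate block, where 8.62% of all genes were called. With the block 5 mRNAs and MT-RNR2 were called lower as well, as given below. MT-TV was at 474 and 440 TPM untreated and 288 and 191 induced and fell by 0.96 ± 0.24 on the log2 scale (limma adjusted p = 0.0425). MT-TL1 was at 1387 and 1401 TPM untreated and 841 and 784 induced and fell by 0.78 ± 0.20 (limma adjusted p = 0.0489). MT-TG, much sparser at 27 and 36.4 TPM untreated and 74.4 and 54.7 induced, rose by 1.0 ± 0.20 (limma adjusted p = 0.0199). The groups did not overlap for these 3 genes. The calls depended on single libraries: MT-TL1 was lost in 8 of the 12 fits that left out 1 library, MT-TV in 7 and MT-TG in 2, and the fit without untreated replicate 1 of this line called none.

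MT-RNR2 in shRCOR1 cells was at 21490 and 26600 TPM untreated and 12310 and 13440 induced, a difference of −0.89 ± 0.24 (limma adjusted p = 0.0546, and 0.00297 with the block). MT-CO1 was at 17970 and 21130 TPM untreated and 11210 and 14600 induced, a difference of −0.61 ± 0.26 (limma adjusted p = 0.193, and 0.0011 with the block). For both genes every induced library lay below every untreated one. In all, 11 members were lower in both induced libraries (23.7% of all genes) and 4 higher (29.4%). With the replicate block, limma called 4 members higher and 10 lower (27.4% of genes): the falls then took in MT-RNR2, MT-ND2, MT-CO1, MT-CO2, MT-ND3, MT-ND5, MT-TY and MT-TE (glutamate), and the rises MT-TW, MT-TA and MT-TN (asparagine). MT-TW was at 41 and 27.6 TPM untreated and 57.8 and 33.9 induced in this line, and at 79.2 and 43 TPM in untreated shCTRL cells, above the shRCOR1 value of the same replicate number in both. Under quantile normalization the differences of MT-ND2 and MT-CO2 were at or just above 0, so their direction depends on the scaling.

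In shRCOR2 cells MT-TD and MT-TL1 rose and MT-RNR1 fell, where limma called 14.3% of all genes. MT-TD was at 61.7 and 54.2 TPM untreated and 202 and 294 induced and rose by 2.05 ± 0.26 on the log2 scale (limma adjusted p = 0.00257), a call that none of the 12 fits with 1 library left out lost. MT-TL1 was at 1675 and 1283 TPM untreated and 2652 and 2998 induced and rose by 0.94 ± 0.20 (limma adjusted p = 0.0184). Its call was lost without untreated replicate 2 or either induced library of this line, and with median-of-ratios scaling. The 2 induced shRCOR2 libraries were the highest of all 12 for both tRNAs.

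MT-RNR1 in shRCOR2 cells was at 3946 and 8125 TPM untreated, a wide spread, and at 2195 and 3076 induced. It fell by 1.12 ± 0.31 (limma adjusted p = 0.0428), and 9 of the 12 fits with 1 library left out lost the call. Without untreated replicate 2, the library at 8125 TPM, the difference was −0.60. MT-RNR2 was at 20230 and 28390 TPM untreated and 14380 and 17300 induced, a difference of −0.60 ± 0.24 (limma adjusted p = 0.131, and 0.0128 with the block).

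The other tRNAs of induced shRCOR2 cells also tended to stand above untreated. The median log2 difference of the 22 tRNAs was 0.71, against 0.07 over all genes and 0.03 over the 13 mRNAs, and 21 of the 22 were above 0, the exception being MT-TV at −0.33. MT-TY and MT-TS1, at 0.09 and 0.00, were below 0 with median-of-ratios scaling. Of the 22, 14 had both induced libraries above both untreated ones, and over all members 16 did, where 37.6% of all genes did; 5 members were lower in both, where 25.7% of genes were. MT-TM (methionine) was at 199 and 92.2 TPM untreated and 291 and 359 induced, and MT-TH (histidine) at 28.3 and 10.4 untreated and 49.5 and 44.2 induced. These untreated libraries differed widely from each other, and the genes were not called without the block. With the replicate block limma called 15 members higher and 4 lower in this line (36.2% of genes), and the rises took in 10 tRNAs (MT-TL1, MT-TD, MT-TI, MT-TQ, MT-TM, MT-TW, MT-TA, MT-TN, MT-TK and MT-TH) with MT-ND1, MT-ND3, MT-CYB, MT-ATP6 and MT-ATP8, and the falls MT-RNR1, MT-RNR2, MT-CO1 and MT-ND5. The blocked adjusted p by limma was 0.0259 for MT-TM and 0.0224 for MT-TH. Depth was 2.01 and 2.1 times the shallowest library in the induced and 1.83 and 1.53 times in the untreated libraries of this line, and its part in the result was not tested.

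Neighbouring genes of the plus strand differed in sign in shRCOR2 cells. The differences were 0.26 for MT-TF, −1.12 for MT-RNR1, −0.33 for MT-TV and −0.60 for MT-RNR2, and then 0.94 for MT-TL1 and 0.34 ± 0.15 for MT-ND1 (limma adjusted p = 0.185, and 0.0053 with the block). Further along, MT-CO1 (−0.41 ± 0.26), MT-CO2 (−0.22 ± 0.33), MT-ND4L (−0.09 ± 0.51), MT-ND4 (−0.03 ± 0.52) and MT-ND5 (−0.34 ± 0.51) were again below 0. None of them was called without the block, and most of these SEs exceed the differences. Between MT-CO2 and MT-ND4L the mRNAs MT-ATP8 (0.26 ± 0.27), MT-ATP6 (0.27 ± 0.29), MT-CO3 (0.11 ± 0.18) and MT-ND3 (0.30 ± 0.16) were above 0, as were the tRNAs there. The plus-strand tRNAs MT-TD, MT-TH, MT-TS2 and MT-TL2, which lie among the mRNAs below 0, were themselves above 0. Their differences were 2.05, 1.39, 1.21 and 0.77, and only MT-TD of them was called without the block. In this line 21 of 22 tRNAs and 7 of 13 mRNAs were above 0. MT-TL1 begins at the base after the last base of MT-RNR2, which ends at position 3229. Within a library, MT-TL1 was at 18.4% and 17.3% of MT-RNR2 in induced shRCOR2 cells and at 4.5% to 8.28% in the other 10 libraries. MT-TD, which ends at position 7585 just before MT-CO2, was at 1.91% and 2.28% of MT-CO2 in induced shRCOR2 cells and at 0.28% to 0.589% elsewhere. MTND1P23, the nuclear copy of part of MT-ND1, was at 80.9 and 74 TPM untreated and 120 and 104 induced in this line and rose by 0.53 ± 0.11 (limma adjusted p = 0.0164). These ratios were chosen after the values were seen and carry no test.

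**Figure D2:**
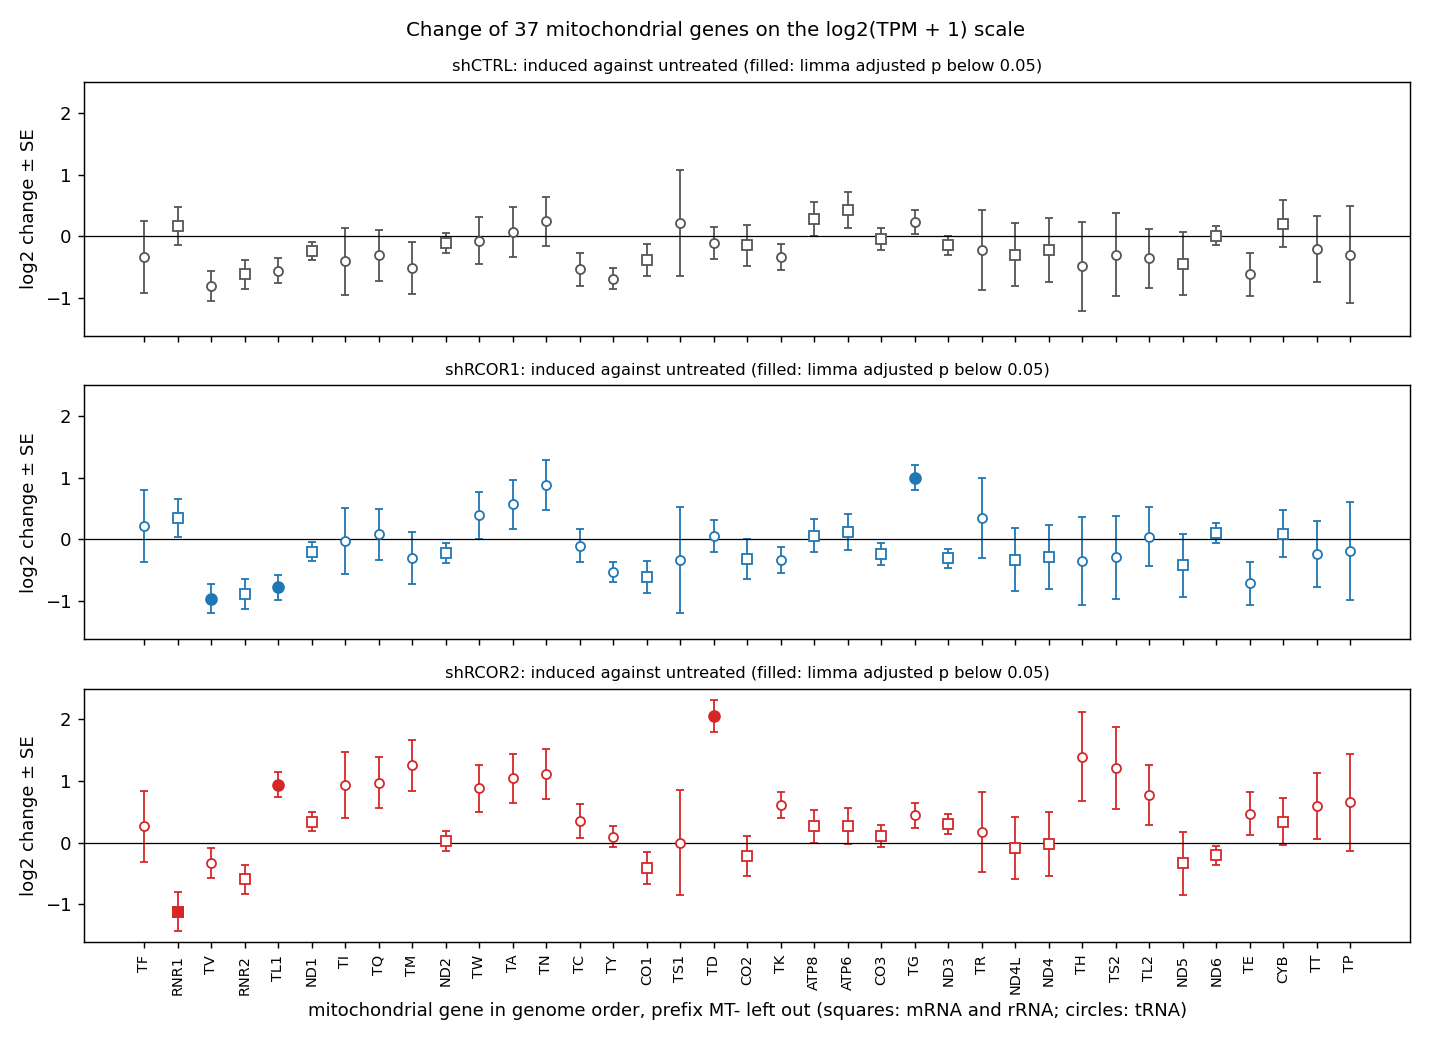
Log2 change (induced minus untreated, on the log2(TPM + 1) scale) with its SE for the 37 genes in genome order, 1 panel per line; squares are mRNAs and rRNAs, circles are tRNAs, and filled symbols passed limma. No symbol is filled for shCTRL, 3 are for shRCOR1 and 3 for shRCOR2, where MT-TD reaches 2.05.

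The change on induction was then compared between lines, each knockdown line against the control line, which also received doxycycline, and the knockdown lines against each other. The 3 line comparisons share libraries, so their values are given side by side only. For shRCOR1 against shCTRL, limma called 0 members, with 1 at an unadjusted p under 0.05 (1.28% of all genes called, 2357 unadjusted), and with the block also 0, with 5 unadjusted (10.2%). The member furthest from 0 was MT-TG at 0.77 ± 0.29 (limma adjusted p = 0.266).

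For shRCOR2 against shCTRL, limma called 2 members, both higher (2.09% of all genes). The change of MT-TD was larger by 2.17 ± 0.37 (limma adjusted p = 0.029) and that of MT-TL1 by 1.51 ± 0.29 (limma adjusted p = 0.0407). In shCTRL cells MT-TD was at 70.7 and 53.5 TPM untreated and 47.9 and 67.2 induced, and MT-TL1 at 1719 and 1152 untreated and 1020 and 890 induced. The direction was the same in each of the 12 fits with 1 library left out, but the threshold was missed in 11 of them for MT-TL1 and in 9 for MT-TD. With the block, limma called 10 members higher (MT-TL1, MT-TD, MT-ND1, MT-ND3, MT-TW, MT-TA, MT-TC, MT-TY, MT-TK and MT-TE) and 1, MT-RNR1, lower (14.7%). MT-RNR1 had a difference of −1.29 ± 0.33 (limma adjusted p = 0.0341, against 0.166 without the block).

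For shRCOR2 against shRCOR1, limma called the same 2 tRNAs (11.2% of all genes): MT-TD by 2.00 ± 0.37 (adjusted p = 0.0123) and MT-TL1 by 1.72 ± 0.29 (adjusted p = 0.00834). In shRCOR1 cells MT-TD was at 45.9 and 51.7 TPM untreated and 41 and 62.5 induced. The MT-TL1 call was kept in all 12 fits with 1 library left out, and that of MT-TD was lost without untreated replicate 2 of shRCOR1 or of shRCOR2. With the block, limma called 10 higher (MT-TL1, MT-TD, MT-ND1, MT-ND3, MT-TM, MT-TW, MT-TY, MT-TK, MT-TH and MT-TE) and MT-RNR1 lower (30.4%).

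**Figure D3:**
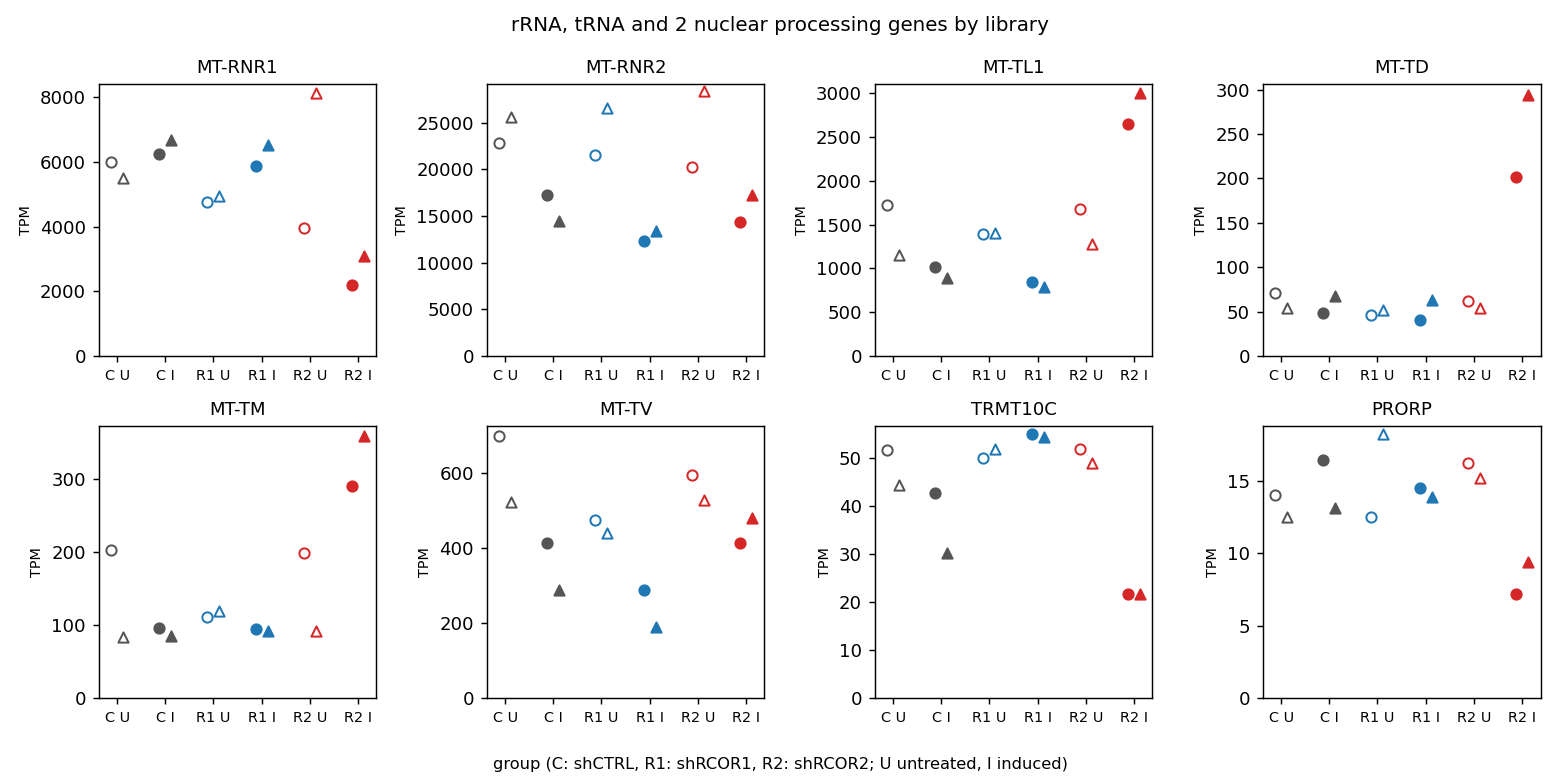
TPM by library for 2 rRNAs, 4 tRNAs and the nuclear genes TRMT10C and PRORP, with both replicates of each group side by side (circles replicate 1, triangles replicate 2, filled points induced). In induced shRCOR2 cells MT-TL1, MT-TD and MT-TM are above, and MT-RNR1, TRMT10C and PRORP below, all other libraries.

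Averaged over the 3 lines, induced against untreated cells showed 2 tRNAs that rose and 3 members that fell by limma (9.62% of all genes called). MT-RNR2 fell by 0.70 ± 0.14 on the log2 scale (limma adjusted p = 0.0184). It was the only member for which all 6 induced libraries, 12310 to 17300 TPM, lay below all 6 untreated ones, 20230 to 28390 TPM, as 1.42% of all genes did. No member had all 6 induced libraries above, as 1.03% of genes did. MT-TV fell by 0.70 ± 0.14 (limma adjusted p = 0.0184) and MT-TY by 0.38 ± 0.10 (limma adjusted p = 0.0483), a call lost in each of the 12 fits with 1 library left out.

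MT-TD rose by 0.66 ± 0.15 (limma adjusted p = 0.03) in this average, which rests on the shRCOR2 line: its difference was −0.11 in shCTRL and 0.05 in shRCOR1. MT-TG rose by 0.56 ± 0.12 (limma adjusted p = 0.0238), with 0.23 in shCTRL, 1.0 in shRCOR1 and 0.44 in shRCOR2. Leaving out 1 library lost the call of MT-RNR2 in 4 of 12 fits, of MT-TV in 5, of MT-TG in 6 and of MT-TD in 8. The fits without untreated replicate 1 or 2 of shRCOR1, or without induced replicate 1 of shRCOR2, called only 1 of the 37. With the block, limma called 8 higher and 7 lower (33.4%), adding falls of MT-CO1, MT-CO2, MT-ND4L and MT-ND5 and rises of MT-ATP6, MT-ATP8, MT-CYB, MT-TW, MT-TA and MT-TN.

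Ratios of mitochondrial transcripts within a library do not depend on the rest of the RNA. MT-ATP6 over MT-CO1 was 0.964 and 0.999 in untreated and 1.66 and 1.77 in induced shCTRL cells. It was 0.991 and 1.02 untreated and 1.66 and 1.67 induced in shRCOR1 cells, and 0.968 and 1.01 untreated and 1.51 and 1.66 induced in shRCOR2 cells. The 6 untreated libraries thus stayed within 0.964 to 1.02 and the 6 induced ones within 1.51 to 1.77, in the control line as in the knockdown lines. With the TPM of the nuclear copies MTATP6P1 and MTCO1P12 added to that of their parents, the ranges were 1.08 to 1.14 and 1.69 to 1.99. Neither gene passed limma in any line without the block: the differences of MT-CO1 were −0.39, −0.61 and −0.41 in shCTRL, shRCOR1 and shRCOR2, and those of MT-ATP6 0.42, 0.12 and 0.27. With the block MT-CO1 fell by 0.47 ± 0.05 over the 3 lines (limma adjusted p = 0.000336) and MT-ATP6 rose by 0.27 ± 0.04 (limma adjusted p = 0.00251). In shCTRL cells alone neither passed with the block (limma adjusted p = 0.132 and 0.102).

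Of the 105 ratios between the 15 mRNAs and rRNAs, 20 had no overlap between the 6 untreated and the 6 induced libraries. MT-RNR2 was in 7 of them, MT-CYB in 6 and MT-CO1 in 5, while MT-RNR1 and MT-ND6 were in none. The ratios share members, and no such count was made for other genes, so whether 20 is unusual was not tested. MT-CO1 over MT-CYB was 2.87 to 3.88 untreated and 1.81 to 2.4 induced, and MT-CO1 over MT-ATP8 was 0.777 to 0.813 untreated and 0.467 to 0.539 induced. The gap was widest for MT-CO1 against MT-ATP6 and MT-ATP8, as the plot of ratios by library shows for MT-ATP6. The ratios were looked at after the levels were known, so they are descriptions.

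The 2 rRNAs lie on the same strand with MT-TV between them, yet their ratio differed between lines. MT-RNR1 over MT-RNR2 was 0.185 to 0.286 in the 6 untreated libraries. It was 0.363 and 0.463 in induced shCTRL cells and 0.478 and 0.484 in induced shRCOR1 cells, above all untreated libraries. In induced shRCOR2 cells it was 0.153 and 0.178, below all of them. The levels behind this were lower MT-RNR2 in each induced group, and lower MT-RNR1 in induced shRCOR2 cells but 5878 to 6690 TPM in the other 4 induced libraries. The part of any rRNA depletion or poly(A) selection in these rRNA values was not tested.

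**Figure D4:**
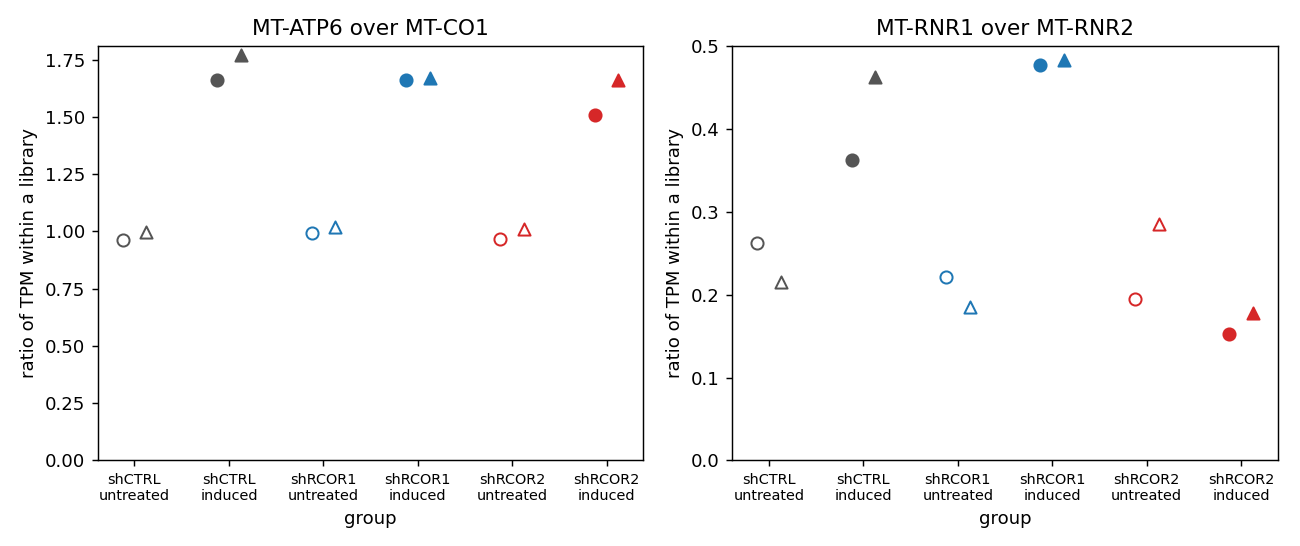
Ratio of MT-ATP6 to MT-CO1 (left) and of MT-RNR1 to MT-RNR2 (right) within each library, by group; circles are replicate 1, triangles replicate 2, filled points induced. The left ratio lies at 0.964 to 1.02 in every untreated and 1.51 to 1.77 in every induced library, and the right one is above the untreated range in induced shCTRL and shRCOR1 and below it in induced shRCOR2.

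More members were called between replicate numbers than in any treatment comparison. The replicate contrast sets 6 libraries against 6 and a within-line comparison only 2 against 2, so these counts are not of like power. For replicate 2 against replicate 1 over the 6 groups, limma called 16 members higher and 10 lower, where 47.3% of all genes were called. Of the 13 mRNAs, 12 were higher in replicate 2. MT-ND4, MT-ND4L and MT-ND5 were higher by 0.82, 0.82 and 0.83 ± 0.07 (limma adjusted p = 0.000826 for each) and MT-CYB by 0.59 ± 0.06, and replicate 2 was the higher library in 6 of 6 groups for each of these 4. MT-ND4 for example had 6970 and 14410 TPM in the 2 untreated shCTRL libraries. These 4 genes are the last plus-strand mRNAs of the genome order. MT-ND6, on the other strand, was not called (−0.12 ± 0.07), and MT-RNR1 and MT-RNR2 were not called either, at 0.28 and 0.18. The directions of MT-ND1, MT-ND2 and MT-CO3 turned with median-of-ratios scaling and quantile normalization, and that of MT-ATP8 with quantile normalization.

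Among the tRNAs, the replicates split both ways. MT-TS1 was at 820 to 1396 TPM in the 6 replicate 1 libraries and 2818 to 3444 TPM in the 6 replicate 2 libraries, higher by 1.43 ± 0.09 (limma adjusted p = 0.000826) and by a factor of 2.23 to 3.72 within groups. MT-TR (arginine), MT-TC (cysteine) and MT-TY were also higher in replicate 2, by 0.98, 0.38 and 0.23. The 10 tRNAs that were lower were MT-TI, MT-TQ, MT-TW, MT-TA, MT-TN, MT-TH, MT-TS2, MT-TE, MT-TT and MT-TP, by 0.48 (MT-TE and MT-TQ) to 1.03 (MT-TH) on the log2 scale. Of these 10, only MT-TI, MT-TW, MT-TA and MT-TH were lower in 6 of 6 groups. The rest of the 10 were higher in replicate 2 in induced shRCOR2 cells, by a factor of 1.07 (MT-TQ) to 1.42 (MT-TT). MT-TN was higher in untreated shRCOR1 cells as well. The block fits a shift common to all groups, which limits the blocked tRNA results of shRCOR2 cells. The calls of MT-TQ, MT-TN, MT-TS2, MT-TT and MT-TP were lost in 8 of 12 fits with 1 library left out, as was that of MT-ND1, and that of MT-CO3 in 10. The summed fibroblast markers moved with the replicate number too, as given above, and their part in these differences was not tested.

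**Figure D5:**
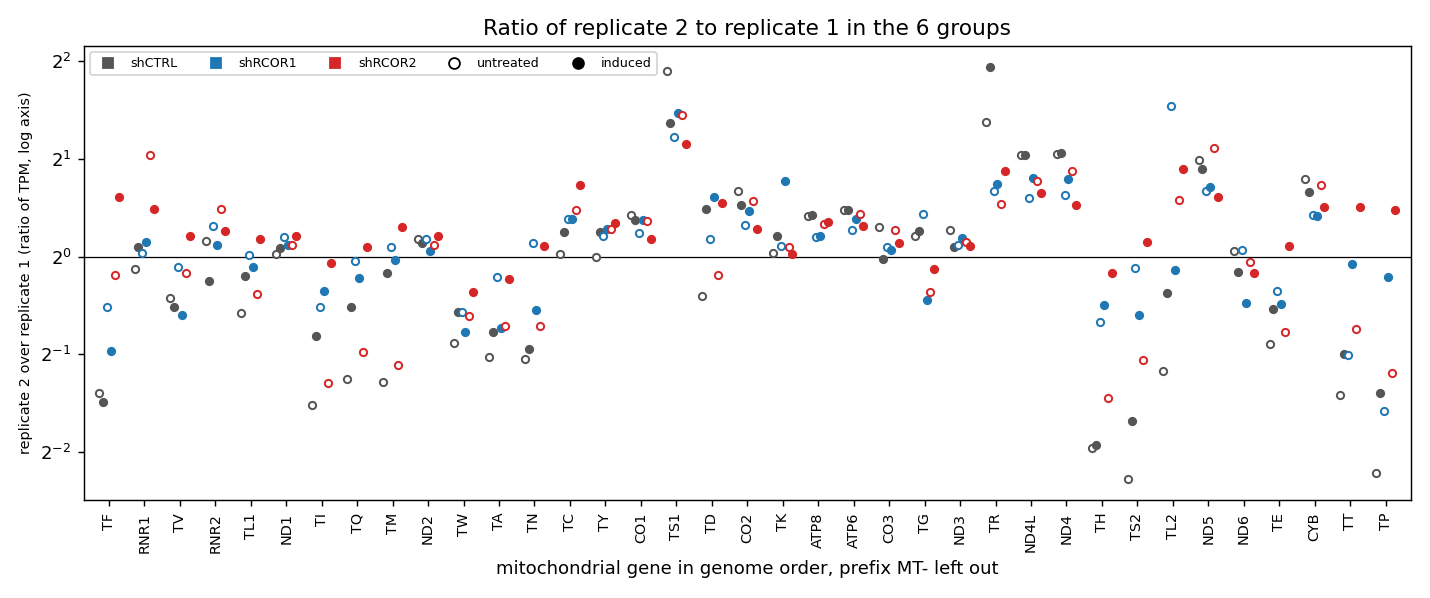
Ratio of replicate 2 to replicate 1 in TPM, on a log axis, for the 37 genes in genome order, 1 point per group (open untreated, filled induced). MT-TS1 lies between 2.23 and 3.72 in all 6 groups and MT-ND4, MT-ND4L and MT-ND5 above 1.4, while MT-TH lies below 1 in all 6.

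The nuclear genes that transcribe, cut, stabilise, modify and translate mitochondrial RNA were followed as a list of 65, all tested. In shCTRL cells limma called 0 of 65 for induced against untreated. In shRCOR1 cells it called 1, where 8.62% of all genes were called: TFAM, which packages mitochondrial DNA and starts its transcription, was at 51 and 51.4 TPM untreated and 28.7 and 28.8 induced and fell by 0.81 ± 0.21, with a limma adjusted p that rounds to 0.05 and lies just under the threshold. In shRCOR2 cells limma called 4 higher and 6 lower, a share near the 14.3% of all genes called there, with a median of −0.09 over the list against 0.07 over all genes.

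Of the 5 RNA processing genes, 2 fell in shRCOR2 cells (14.3% of all genes were called in either direction), and both encode subunits of mitochondrial RNase P. TRMT10C was at 51.8 and 49 TPM untreated and 21.8 and 21.8 induced and fell by 1.17 ± 0.15 (limma adjusted p = 0.00258). PRORP was at 16.2 and 15.2 TPM untreated and 7.2 and 9.4 induced and fell by 0.85 ± 0.19 (limma adjusted p = 0.023). The induced shRCOR2 libraries were the lowest of all 12 for both genes. The third subunit HSD17B10, at 0.21 ± 0.28, and ELAC2, at −0.20 ± 0.11, were not called in this line, while in shRCOR1 cells limma called both lower once blocked (adjusted p = 0.0307 and 0.0197).

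Against the control line, the TRMT10C difference was −0.77 ± 0.21 and that of PRORP −0.99 ± 0.27 (limma adjusted p = 0.108 for both). Blocking on the replicate number, limma called both lower (adjusted p = 0.0242 and 0.0387), among 3 higher and 7 lower members of the list, a share near the 14.7% of all genes, where none of 65 was called without the block. TRMT10C was at 51.6 and 44.3 TPM untreated and 42.6 and 30.2 induced in shCTRL cells, a difference of −0.40 ± 0.15 (limma adjusted p = 0.871). Against shRCOR1, where TRMT10C was at 50 and 51.9 untreated and 54.9 and 54.4 induced, the change was lower by 1.27 ± 0.21 (limma adjusted p = 0.00861). Whether these 2 transcripts bear on the tRNA values was not tested.

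The tRNA-modifying enzyme GTPBP3 fell by 0.78 ± 0.13 in shRCOR2 cells (limma adjusted p = 0.00818), from 42.3 and 46.9 to 24.3 and 26.9 TPM. Its partner in that modification, MTO1, rose by 0.93 ± 0.22 (limma adjusted p = 0.0255), from 15.4 and 14.8 to 29.6 and 29.6 TPM. MTIF3, a translation initiation factor, rose by 0.76 ± 0.16 (limma adjusted p = 0.0164) and FASTK, which is known to stabilise MT-ND6 mRNA, by 0.72 ± 0.09 (limma adjusted p = 0.00289). MT-ND6 itself was at 1872 and 1799 TPM untreated and 1684 and 1502 induced in these cells, a difference of −0.21 ± 0.16 (limma adjusted p = 0.441).

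Of the genes for transcription, the polymerase POLRMT rose by 0.34 ± 0.09 in shRCOR2 cells (limma adjusted p = 0.0364), from 63.9 and 60.3 to 82 and 75.8 TPM, and its difference was 0.33 ± 0.09 in shRCOR1 cells (limma adjusted p = 0.0555, and 0.0128 with the block) and 0.12 ± 0.09 in shCTRL cells. TFB2M, at −0.44 ± 0.21, and the elongation factor TEFM, at 0.35 ± 0.15, were called by limma in shRCOR2 cells only once blocked (adjusted p = 0.0311 and 0.0413). LRPPRC and SLIRP, which together bind and protect mitochondrial mRNAs, the elongation factor TUFM and the coactivator PPARGC1A were not called in any line. The largest difference among them was 0.41 ± 0.12 for LRPPRC in shRCOR1 cells (limma adjusted p = 0.0655), which passed with the block (limma adjusted p = 0.00322).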

How the data were processed

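Reads were processed with Trim Galore 0.6.7, HISAT2 2.2.1 and StringTie 2.1.7 on GRCh38 (hg38), per the submitters' processing notes. RNA came from RNeasy Plus kits and directional NEBNext Ultra II libraries, per the labels' protocols. The sources used here do not give the annotation release, strand setting, multimapping rule, or poly(A) selection or rRNA depletion. The deposited TPM values, which the authors' StringTie runs scale to a common sum, were used for every result, printed to 3 or 4 significant digits. The deposited FPKM values served as an alternative, and the deposited coverage signal to compare depths. Read totals were not used here, so depth is relative and no counting intervals are given.

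The 16842 genes reaching 1 TPM in 2 or more of 12 libraries were fitted as log2(TPM + 1) with 6 group means and a variance trend in limma 3.58.1 (R 4.3.3). A call is an adjusted p under 0.05 (Benjamini-Hochberg over the 16842 genes). The replicate contrast came from the fit with the replicate number as a block. Fold changes on this scale understate low genes. The script was tested on simulated data. Other tools were Python 3.11.15, pandas 2.3.3, numpy 2.4.6, Biopython 1.88 and matplotlib 3.10.9.

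Deviations from the group means correlated between same-numbered libraries in all 15 pairs of groups (0.372 to 0.75), so the numbers pair the samples. Calls that the block changed are given for the members and for only part of the nuclear list. The members, the nuclear list and the rule for named genes were chosen with earlier results of these data known. That rule names the mRNAs and rRNAs, the 5 most abundant tRNAs and any called, 8 fixed nuclear genes, the 3 largest called changes of the nuclear list in each direction and line, and the 5 most abundant nuclear copies. HSD17B10, ELAC2 and the other tRNAs printed were named after their values were seen. Alternatives were FPKM, a nuclear-only denominator, 2 other scalings, another pseudocount, other filters, the block and leaving out each library.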

Additional observations from a re-analysis of the deposited data

Results flagged for a closer look

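2 tRNAs changed differently between lines by a direct test of the difference in limma. The change of MT-TD was larger in shRCOR2 than in shCTRL cells by 2.17 on the log2 scale, and larger than in shRCOR1 cells by 2.00. The change of MT-TL1 was larger in shRCOR2 than in shCTRL cells by 1.51, and larger than in shRCOR1 cells by 1.72. Both induced shRCOR2 libraries were the highest of the 12 for both genes. Within lines MT-TL1 differed by 0.94 in shRCOR2, −0.56 in shCTRL and −0.78 in shRCOR1 cells, so part of its gap lies in the other lines. Against shCTRL the limma adjusted p was 0.029 for MT-TD and 0.0407 for MT-TL1. Leaving out 1 library moved these differences over 1.90 to 2.44 and 1.22 to 1.79. Neither call against shCTRL held with no filter on low values, and the limits given above apply.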

How the results depend on the processing

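The counts of members called moved most with the replicate block: 1 for shCTRL, 14 for shRCOR1, 19 for shRCOR2, 15 for the mean of 3 lines, 11 for shRCOR2 against shCTRL and 11 for shRCOR2 against shRCOR1, where the unblocked fits called 0, 3, 3, 5, 2 and 2. With the block on TPM rescaled to nuclear genes only, they were 1, 14, 18, 15, 13 and 13. The block changed no call for shRCOR1 against shCTRL or between untreated lines. Quantile normalization gave 6 calls for shRCOR1, 5 for shRCOR2, 5 for shRCOR2 against shRCOR1 and 17 for the replicate contrast (26 unaltered). Median-of-ratios scaling gave 1 for shRCOR1 and 1 for shRCOR2 against shCTRL. With no filter on low values the counts were 1 for shRCOR1, 1 for the mean of 3 lines, 0 for shRCOR2 against shCTRL and 14 for the replicate contrast. Leaving out 1 library gave 0 to 3 calls for shRCOR1, 1 to 3 for shRCOR2, 1 to 4 for the mean of 3 lines, 0 to 2 for shRCOR2 against shCTRL, 1 to 3 for shRCOR2 against shRCOR1 and 19 to 27 for the replicate contrast; the lone library left in a group is then assumed to vary like the others. The cause of these shifts was not tested. The median rRNA to mRNA ratio was 0.182, and 0.245 without MT-ATP8 and MT-ND4L, whose removal lowers the mRNA sum.

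Single genes turned direction as follows. Under quantile normalization MT-ND2 and MT-CO2 in shRCOR1 cells were at 0.00 and 0.01. In shRCOR2 cells leaving out 1 library moved MT-ND5 from −0.90 to 0.21 (without untreated replicate 2) and MT-CYB from −0.02 (without untreated replicate 1) to 0.70. In the replicate contrast MT-ND1, MT-ND2 and MT-CO3 were at −0.02, −0.00 and −0.01 with median-of-ratios scaling, and MT-ND1, MT-ND2, MT-ATP8 and MT-CO3 at −0.08, −0.31, −0.03 and −0.12 with quantile normalization; both scalings moved the median of all genes in that contrast by −0.12. Leaving out 1 library kept the direction in all but 2 of 1164 values of a chosen set of single genes. That set did not cover every difference printed here. In shRCOR2 cells the differences of MT-ND4, MT-ND4L and MT-CO2 were negative with all libraries and turn positive without untreated replicate 2. MT-ND4 for example was at 6901 TPM in untreated replicate 1 and at 7613 and 10970 TPM induced. With 2 libraries a group and no read totals, small differences of sparse tRNAs were not detectable.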
